A study of Danio rerio with 13 samples.

Results

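The genes described here are 150 of the 32105 genes in a count table of zebrafish liver RNA, and all of them were far higher in 3 livers than in the other 10. Of the 150, 52 stand in at least 1 of the 23 gene lists used here, which cover functions and cell types of the intestine, the liver and other tissues, and the rest in none. They were chosen by expression itself. The 3 livers were those with apoea (ENSDARG00000102004), 1 of the zebrafish apolipoprotein E genes, above 1000 CPM (a gene's share of a liver's total count, times 1000000), and are called apoea-high livers here. Of the 1410 genes at 50 CPM or more in each of the 3, the 150 with the highest ratio of their lowest CPM in the apoea-high livers to their highest CPM in the other livers, plus 0.1 CPM, were taken as members. apoea, which defined the livers, and CYP26A1 were left out. Differences of the members between the 3 livers and the 10 are therefore what the choice was made on. They are given as descriptions, with no test.

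Livers of 13 male fish of the AB strain, 3 months old, were sequenced in 3 groups: 5 tert+/+ (AB wild type), 5 tert+/- and 3 tert-/-. The mutant fish carry the tert hu3430 allele of the catalytic subunit of telomerase in 1 or both copies, and the labels give no treatment. The apoea-high livers are tert+/+ replicate 5, tert+/- replicate 3 and tert-/- replicate 1, 1 of each genotype, and values given in a row of 3 for them follow that order. apoea was at 18929.7, 11873 and 11863 CPM in them and at 0.0562 to 2.15 CPM in the others. Total counts per liver ran from 17801374 to 37309651, so that 1 count was worth 0.0268 to 0.0562 CPM, and a count of 0 allows up to 0.0804 to 0.169 CPM (3 counts of the total, counting error only). tert itself (TERT, ENSDARG00000042637) was at 15.4, 9.09 and 7.62 CPM in the apoea-high livers and 0.515 to 4.22 CPM in the others. All 3 groups held counts of it, and a nonsense mutation need not lower the transcript, so its level does not check the genotypes. Every fish has its own number in the labels and was taken as a separate animal. The replicate numbers used here are not from the labels but were assigned within each genotype, in the order of the samples.

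The absorptive cell of the intestine, the enterocyte, faces the gut lumen with a brush border of packed microvilli. Villin and other actin binding proteins build these, and peptidases, phosphatases and lipases sit on their surface next to carriers for peptides, amino acids, sugars and vitamins. Within the cell, fatty acid binding proteins carry dietary lipid, which is rebuilt into triglyceride and leaves on lipoproteins with apolipoproteins such as ApoA-IV. Goblet cells, which secrete mucus, and hormone-producing enteroendocrine cells lie between the enterocytes. In zebrafish the anterior intestine takes up most lipid, while lysosome-rich enterocytes further back take up whole protein.

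All 13 samples are labelled liver. The markers of hepatocytes, the main cell of the liver, were present in the 3 apoea-high livers at a lower summed level, 31999, 19918 and 26116 CPM, against a lowest, median and highest of 75898, 186101 and 225508 CPM in the others. Of 29 measured hepatocyte markers 28 were lower in each apoea-high liver than in each other liver, as were 5.65% of the 16060 genes that reached 1 CPM in any liver. fabp10a, the fatty acid binding protein of fish liver, was at 4727, 2320.5 and 2912 CPM against 12919.6 to 33798 CPM, and tfa, the iron carrier transferrin, at 7794, 3578 and 7748 CPM against 10990.3 to 66164 CPM. In bulk RNA, fewer cells of a type and less RNA per cell cannot be told apart. tert-/- replicate 1 also stood apart in the list of exocrine pancreas genes, with 81.9, 196 and 10694 CPM in the apoea-high livers and 156 to 987 CPM in the others. Heart muscle genes summed to 8363 CPM in tert+/+ replicate 1 and 7416 CPM in tert+/- replicate 5, against 11.6 to 34.5 CPM in the other 8 livers of their set. What these other tissues contribute to the members' levels was not tested.

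Together the 150 members took 11.7%, 8.96% and 11.6% of all counts in the apoea-high livers. In the other 10 livers they took 0.0691% to 0.105%, with a median of 0.0964%. No liver lies between the 2 sets, and each genotype holds 1 of the 3 high livers. The median member was at 225, 188 and 259.5 CPM in the apoea-high livers and at 0.395 to 0.895 CPM in the others. All 150 had counts in each apoea-high liver, and 122 to 144 of them had at least 1 count in each other liver.

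**Figure D1:**
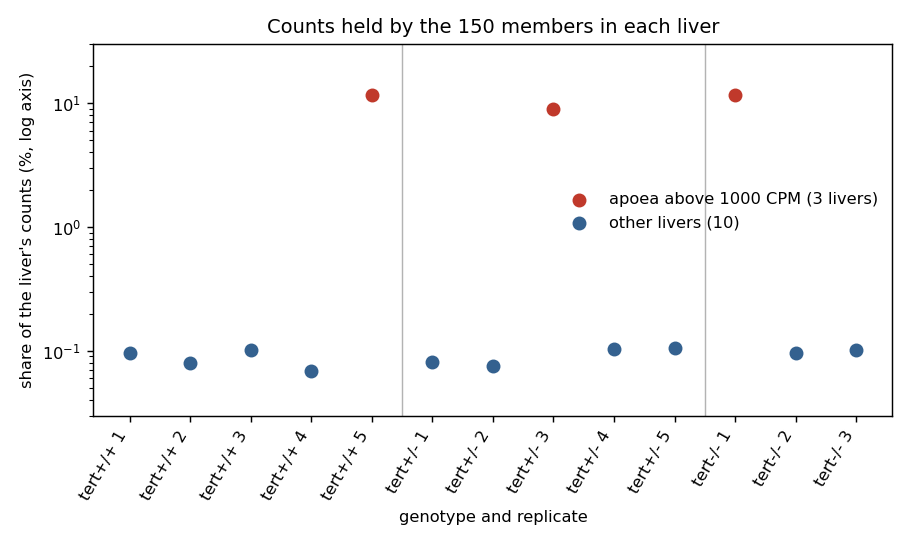
Share of a liver's counts held by the 150 members (percent, log axis), with 1 point per liver ordered by genotype and replicate. The 3 apoea-high livers, 1 in each genotype, sit at 8.96% to 11.7% and the other 10 at 0.0691% to 0.105%.

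The ratio used for the ranking had a median of 90.9 and ran from 8.82 to 3670. It was over 10 in 145 members, over 100 in 72 and over 1000 in 16. At the edge of the list the last members were GDPD1, a phosphodiesterase of lysophospholipids (ratio 9.57), FOLR2, a folate receptor (9.43), and si:ch211-71m22.1 (8.82). The first genes left out were acta2, the actin of smooth muscle (8.62), CNDP2, a dipeptidase (8.26), and si:dkeyp-1h4.9 (8.01). The ratio thus runs on without a gap at the edge, and acta2, just outside, was at 310.4, 181 and 263 CPM in the apoea-high livers and at most 20.9 CPM elsewhere. Of all 16060 measured genes, 20% were higher in each apoea-high liver than in each other liver, which is the background for the counts of list genes below. Nothing is read from those counts, since this contrast chose the members.

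**Figure D2:**
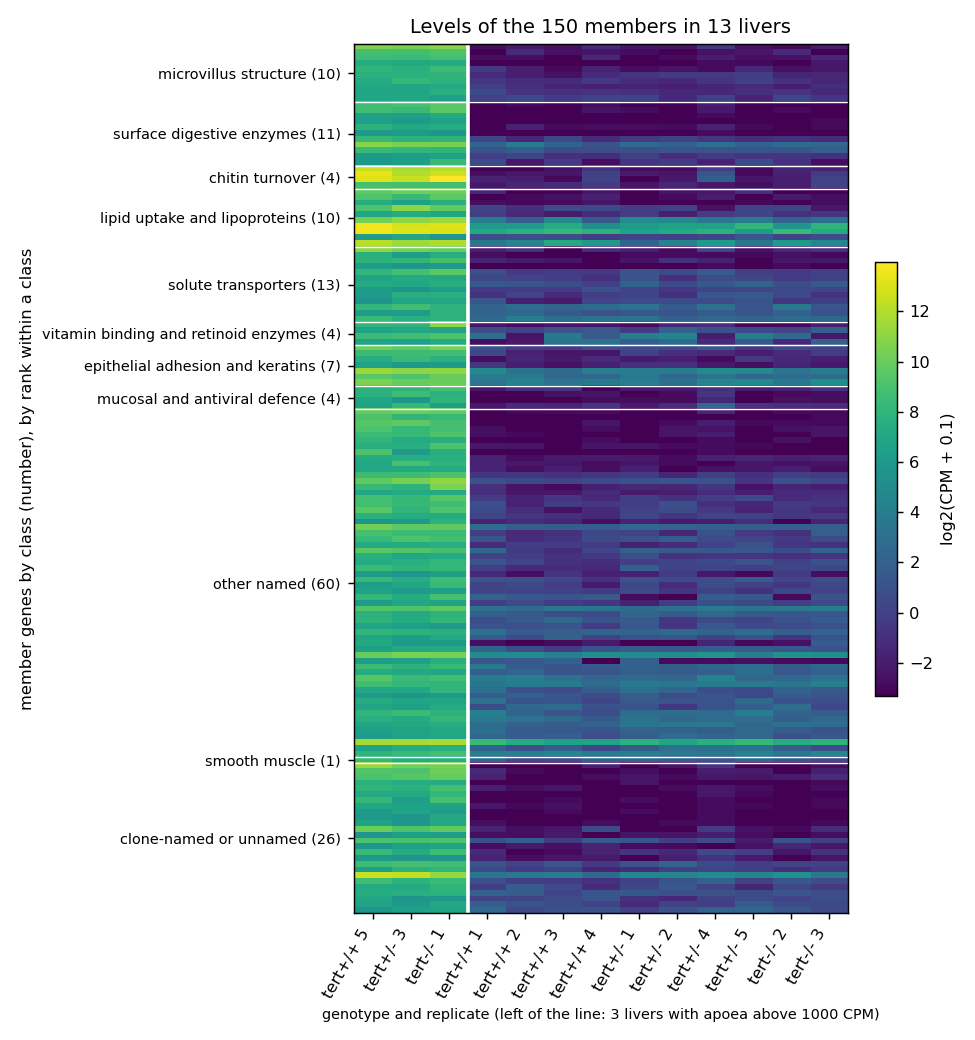
Level of each of the 150 members (rows, as log2(CPM + 0.1)) in the 13 livers (columns), grouped by class and ordered by rank within a class. The 3 apoea-high livers left of the white line hold 50 CPM or more of every member, and in the other 10 livers 57 members stay under 1 CPM throughout.

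The members were sorted by known function into classes, after the list was seen, for description only. The microvillus class has 10 members and summed to 3659, 3358 and 4319.6 CPM in the apoea-high livers against a lowest, median and highest of 1.97, 3.06 and 4.83 CPM in the others. VIL1, villin, which bundles the actin of microvilli (ENSDARG00000040466, rank 5), was at 1630.2, 1362 and 1861 CPM. In the other livers its lowest, median and highest levels were 0.0346, 0.0909 and 0.636 CPM, so no value of either set comes near the other. MYO7B, the motor of the complex that links the tips of microvilli in mammals, was at 401, 358 and 456 CPM against 0, 0.0567 and 0.296 CPM. USH1C, a scaffold of that complex, was the most even member of all, at 158, 149.7 and 157 CPM, and had 0 counts in 7 of the 10 other livers. ANKS4B and CALML4 (ENSDARG00000075800), further parts of it, were at 119.9 to 138 and 92.2 to 127 CPM in the apoea-high livers. pdzk1, a scaffold that holds transporters in the membrane, was at 466, 423 and 579.9 CPM against 0, 0.0743 and 0.343 CPM. PLS1, the bundling protein plastin 1, was at 258, 206 and 354 CPM against 0.0345, 0.103 and 0.674 CPM. The members of this class differed little among the 3 livers, with a median ratio of highest to lowest of 1.37. Of 22 measured genes in the list of brush border structure 9 are members, 14 were higher in each apoea-high liver than elsewhere and 8 overlapped.

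Enzymes of the brush border surface form a class of 11 members, at 3908, 3238 and 4313 CPM in sum against 4.64, 9.72 and 18.2 CPM. ANPEP (ENSDARG00000103878), aminopeptidase N, which cuts single amino acids from peptides, was at 1873, 1376 and 1366 CPM against a lowest, median and highest of 2.06, 4.99 and 13.2 CPM. MEP1B (ENSDARG00000037533), a subunit of the protease meprin, was at 415, 324 and 749 CPM against 0, 0 and 0.119 CPM. ENPEP, aminopeptidase A, was at 319, 273 and 259 CPM against 1.55, 2.15 and 3.44 CPM. MEP1B was highest in tert-/- replicate 1, while ANPEP and ENPEP were highest in tert+/+ replicate 5. Single counts were all that some of the class had outside the 3 livers. ENPP7 (ENSDARG00000053526), which splits sphingomyelin, ALPP, an alkaline phosphatase, and LCT (ENSDARG00000060671), lactase, each had 1 count over the 10 livers together. They were at 92.4 to 156, 70.0 to 103 and 58.1 to 74.6 CPM in the apoea-high livers. In the list of brush border and luminal hydrolases 9 of 26 measured genes are members, and 21 were higher in each apoea-high liver.

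Chitin genes are few and hold many of the counts. The 3 chitinases chia.1, chia.2 and chia.3 and the chitin synthase chs1 summed to 26409.5, 14083 and 27748 CPM in the apoea-high livers and to 0.214, 0.548 and 6.48 CPM at the lowest, median and highest in the others. chia.2 has rank 1 of the 150 and was at 6050.3, 3433 and 4471 CPM against 0, 0.0580 and 0.835 CPM. chia.1 was at 9404, 6022 and 16295 CPM against 0, 0.172 and 3.42 CPM, and chia.3 at 10460.5, 4172 and 6545 CPM against 0.0268, 0.128 and 2.11 CPM. All 3 chitinases were lowest in tert+/- replicate 3, chia.2 and chia.3 highest in tert+/+ replicate 5, and chia.1 highest in tert-/- replicate 1. chs1 was among the most even members, at 494, 457 and 437 CPM. The chitinases are close copies, so the counting could split reads between them. In the order of genes in RefSeq (assembly GRCz12tu) chia.1 and chia.2 are direct neighbours, and 1 protein-coding gene lies between chia.2 and chia.3.

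Lipid uptake and lipoprotein genes took the largest share among the classes named by function, 33676, 25817 and 28247 CPM over 10 members. The other livers held 224, 364 and 655 CPM. FABP2, the intestinal fatty acid binding protein, was at 12404, 8996 and 8537 CPM, and it was the member with the highest median in the other livers, at 76.6, 187 and 343 CPM. apoa4b.2, an ApoA-IV gene, was at 13059, 7837 and 9726 CPM against 39.0, 89.3 and 283 CPM. Its near copy apoa4b.3 was at 1326, 2272 and 2830.1 CPM against 2.95, 13.6 and 36.2 CPM, and apoa4a at 547, 2051 and 880.3 CPM against 0.0795, 1.06 and 1.52 CPM. apoa4b.2 was highest in tert+/+ replicate 5, while apoa4b.3 was lowest there and apoa4a highest in tert+/- replicate 3. FABP1 (ENSDARG00000059227), a fatty acid binding protein that liver and intestine share in mammals, was at 4600.3, 2768 and 3947 CPM. In the other livers it ran from 4.70 to 147 CPM. CD36, which helps fatty acids into cells, and ACSL5, which activates them with coenzyme A, had ranks 13 and 16. They were at 777, 1166 and 1152 CPM and 599, 339.8 and 799 CPM, against at most 0.429 and 0.187 CPM. MOGAT2, which starts the rebuilding of triglyceride in enterocytes, was at 180.0, 93.3 and 189.8 CPM against 0, 0.0277 and 0.0937 CPM. TM4SF4, a tetraspan protein of the same fixed list, was at 1018, 1456 and 1394 CPM against 15.06, 35.7 and 51.0 CPM. In the list of lipid absorption and lipoproteins 9 of 38 measured genes are members, 24 were higher in each apoea-high liver and 4 lower. Summed over the whole list the sets overlapped, at 102363, 75132 and 85631 CPM against 58376, 109926 and 124124 CPM. Liver makes lipoproteins as well, and apoa1b, an ApoA-I gene that is not a member, was at 9534, 8824 and 8096 CPM against 33972 to 73743 CPM (chosen after its values were seen).

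Corrected for gene length (RPKM with each liver's own total), the members rank differently than by counts. FABP1 (ENSDARG00000059227) had the highest median over the 3 apoea-high livers, 7910 RPKM, followed by apoa4b.2 with 7215, FABP2 with 6729, si:dkey-238c7.13 with 6684 and chia.1 with 5538 RPKM. The 5 do not separate, since their values in the 3 livers overlap: FABP1 lay at 5547 to 9219 RPKM, apoa4b.2 at 5813 to 9688, FABP2 at 6385 to 9277, si:dkey-238c7.13 at 2981 to 7077 and chia.1 at 3546 to 9596 RPKM. The next were chia.3 with 3085 and chia.2 with 2530 RPKM. actb1, a cytoplasmic beta-actin that most cells use, had 1533 RPKM. By counts, the 10 members with the most took 60.04%, 51.9% and 52.0% of all member counts in the apoea-high livers.

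Solute transporters number 13, with 4185, 3543 and 3927 CPM in sum against 15.4, 23.8 and 34.8 CPM. SLC13A2, a carrier of dicarboxylates and citrate, was at 2217, 1362 and 979 CPM against 0, 0.232 and 1.03 CPM. Its relative SLC13A1, a sulfate carrier, was at 213, 81.6 and 180.3 CPM against 0, 0.0347 and 0.0692 CPM. Both were highest in tert+/+ replicate 5. SLC15A1 (ENSDARG00000044528), the peptide carrier PepT1, was at 238, 274 and 493 CPM against 0, 0.111 and 0.395 CPM. SLC5A1, the sodium-glucose carrier, was at 281, 450.2 and 776 CPM against 0.629, 0.931 and 2.98 CPM. These 2 carriers were both highest in tert-/- replicate 1. SLC6A19 (ENSDARG00000018621), which takes up neutral amino acids, was at 81.8, 58.6 and 62.7 CPM and had 2 counts in the 10 other livers together. SLC43A2 (ENSDARG00000061120), SLC7A8 and slc3a2a move amino acids. They were at 233 to 411, 135 to 190.0 and 185 to 328 CPM in the apoea-high livers. Elsewhere they were at most at 12.5, 4.40 and 15.13 CPM. SLC23A1, a vitamin C carrier, was at 81.5, 82.8 and 232 CPM against 1.83, 2.75 and 5.66 CPM. Of the fixed lists, 6 of 19 measured peptide and amino acid carriers, 1 of 9 sugar carriers and 3 of 33 ion, metal and vitamin carriers are members, and 11, 3 and 18 were higher in each apoea-high liver.

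**Figure D3:**
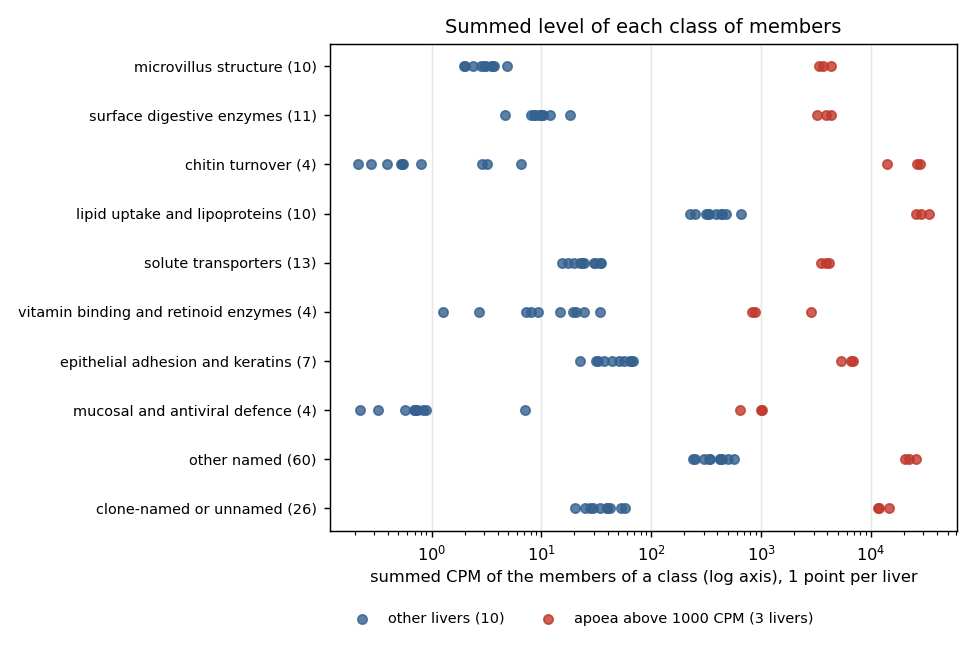
Summed CPM of the members of each class with more than 1 member (log axis), with 1 point per liver and the number of members in brackets. In each of the 10 classes the 3 apoea-high livers lie above all 10 others, as the choice of members fixes, and chitin turnover goes from at most 6.48 CPM to at least 14083 CPM.

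The 4 members that bind vitamins or act on retinoids were the most uneven of the 10 classes by sum, at 823, 877 and 2838 CPM. Most of the sum in tert-/- replicate 1 was tcnba, a carrier of vitamin B12, at 261, 248 and 1996 CPM against 0.0268, 0.0986 and 0.358 CPM. BCO1, which cleaves beta-carotene to retinal, was at 103, 136 and 111 CPM against 0.705, 1.72 and 4.56 CPM. RETSAT, retinol saturase, was at 358, 405 and 574 CPM against 0.0858, 6.76 and 22.6 CPM. FOLR2 was at 101, 88.1 and 157 CPM against 0.0562, 3.197 and 9.24 CPM. Of 19 measured genes in the list of retinoid handling, 2 are members (BCO1 and RETSAT), 8 were higher in each apoea-high liver and 4 lower.

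Genes of epithelial contact and keratins, 7 in number, were at 6878, 5326 and 6546 CPM in sum against 22.7, 47.1 and 68.8 CPM. krt4, a keratin of simple epithelia in fish, was at 2664, 2071 and 2274 CPM against 5.97, 16.4 and 32.0 CPM, and krt92 at 1541, 1019 and 1100.0 CPM against 8.29, 14.7 and 38.5 CPM. CDH17, the liver-intestine cadherin, was at 754, 571 and 995 CPM against 5.29, 7.08 and 14.8 CPM. cldn15la, a claudin of tight junctions, was at 377, 398 and 417 CPM against 0.0937, 0.332 and 1.24 CPM. The keratins and CDH17 kept several CPM in each other liver, while cldn15la did not pass 1.24 CPM there. epcam, a surface protein of many epithelia that is not a member, was lower in the apoea-high livers, at 6.78, 2.24 and 6.72 CPM against 9.06 to 24.3 CPM (chosen after its values were seen). Of 23 measured genes of epithelial junctions and keratins 4 are members and 13 were higher in each apoea-high liver.

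Defence genes among the members are mbl2, a lectin that binds sugars of microbes, olfm4.1, olfactomedin 4, and the interferon-induced ifit14 and ifit15. Their sums were 649, 988 and 1012 CPM against 0.225, 0.715 and 7.04 CPM. ifit14 was at 99.1, 314 and 80.0 CPM, highest in tert+/- replicate 3, as was ifit15 at 213, 386 and 213 CPM. Outside the 3 livers both were highest in tert+/- replicate 4, ifit14 at 5.85 CPM against at most 0.562 CPM in the next liver. ifit14 and ifit15 are direct neighbours in the RefSeq order.

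Members named for other functions, 60 in all, include several of the highest ranks. Both genes listed as PLAC8 were high, ENSDARG00000043729 at 896, 1117 and 857 CPM (rank 2) and ENSDARG00000094438 at 699, 812 and 465 CPM (rank 7), and stayed at or under 0.278 and 0.159 CPM elsewhere. Reads of the 2 may be split by the counting. pvalb9, a parvalbumin, which binds calcium, was at 571, 258 and 319 CPM and had 1 count over the 10 other livers. AOC1, the diamine oxidase that breaks down histamine in the gut of mammals, was at 538, 309.8 and 454 CPM against 0, 0.0515 and 0.0889 CPM. fxyd12, of the family that modulates the sodium pump, was at 274, 164 and 198 CPM, smim24, a small membrane protein, at 356, 316 and 596 CPM and MELTF, melanotransferrin, at 187, 195 and 538 CPM. The other livers did not pass 0.159 CPM in these 3.

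The members named next were picked for a known function after their values were seen. Parts of the cell skeleton and of membrane traffic were among them. MYO5B, a motor that carries vesicles to the brush border in mammals, was at 186, 158 and 300.0 CPM against 2.95, 6.46 and 14.0 CPM, and sptbn5, a spectrin, at 383, 396 and 564 CPM against 0.263, 0.544 and 0.875 CPM. The thymosin tmsb1, which binds actin, was at 1260.0, 827 and 883 CPM against 3.50, 3.79 and 7.25 CPM. anxa2b, an annexin, and s100a10a, of the family that binds annexin 2, were at 304, 542 and 423 CPM and 771, 637 and 463 CPM, and at most at 3.38 and 5.67 CPM elsewhere. In tert+/+ replicate 5 anxa2b was lowest and s100a10a highest. Among enzymes, ADA, adenosine deaminase, was at 312, 176 and 383 CPM against 0.468, 1.64 and 3.08 CPM, and gpx1b, a glutathione peroxidase, at 755, 260.1 and 587 CPM against 0.0690, 0.480 and 1.54 CPM. cyp46a1.1 and cyp3c3, both cytochromes P450, were at 426, 299 and 687 CPM and 85.2, 131 and 348 CPM, each highest in tert-/- replicate 1, and sult6b1, a sulfotransferase, was at 735, 344 and 424 CPM. PEPD, which splits dipeptides that end in proline, was at 389, 286 and 256 CPM and still at 5.90, 12.8 and 16.5 CPM in the other livers. PFKFB3 and pfkfb4a, which set the level of an activator of glycolysis, were at 159 to 287 and 99.1 to 186 CPM in the apoea-high livers and at most 2.06 and 10.2 CPM elsewhere. tm4sf21b, a tetraspan protein, was at 882, 1413 and 2188 CPM against 0.536, 1.62 and 2.33 CPM, and muc13b, a mucin of the cell surface counted with the epithelial genes, at 1262, 856 and 1481 CPM against 0.590, 1.32 and 2.59 CPM. RBM47, which binds RNA, was at 225, 161 and 235 CPM against 1.45, 2.77 and 5.17 CPM.

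actb1 was at 3177, 3429.5 and 3517 CPM, among the most even, and at 94.1, 187 and 322 CPM in the others, where tert+/+ replicate 1 and tert+/- replicate 5, the livers with heart muscle transcripts, were the 2 highest. The 26 members with a clone name or only an identifier were at 14614, 11743 and 11673 CPM in sum. The most abundant of them by count were si:dkey-238c7.13, at 5810.1, 5488 and 2448 CPM against 5.996, 20.1 and 43.3 CPM, and zgc:153968, at 2692, 1134 and 1409 CPM with 0 counts in 6 of the other livers. ENSDARG00000101629 (rank 10) was at 645, 577 and 1128 CPM and zgc:158846 (rank 15), a direct neighbour of krt4 in the RefSeq order, at 546, 690.1 and 944 CPM.

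Lists of other cell types gave few members. Of the goblet cell list 3 of 6 measured genes were higher in each apoea-high liver. clca1, of goblet cells in mammals, is the only member among them, at 584, 66.9 and 197 CPM with 1 count in the other 10 livers, and AGR2, needed for mucin folding, was at 67.5, 48.0 and 71.7 CPM against 0.0345 to 1.15 CPM. The secreted mucins of the list were near 0, muc5.1 at 0.114, 0.125 and 0.0700 CPM, muc5.2 at 0.114, 0.166 and 0.105 CPM and muc2.2 without a count in the 3 livers. The genes of the enteroendocrine list, hormone genes and others, lie under the 50 CPM floor and give no member. Of its 23 measured genes, 16 were nevertheless higher in each apoea-high liver. PYY, peptide YY, was at 25.8, 34.5 and 42.4 CPM against 0 to 0.318 CPM, and CCK, cholecystokinin, at 2.58, 15.2 and 22.1 CPM against 0 to 0.148 CPM. Of the smooth muscle list TAGLN (ENSDARG00000045408), transgelin, is the only member, at 295, 167 and 181 CPM against 1.54, 3.11 and 6.12 CPM, and 13 of 24 measured genes were higher. Leukocyte genes gave no member, and 4 of 18 were higher.

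By region of the intestine, 10 of 17 measured genes of the anterior list are members and 13 were higher in each apoea-high liver. The sums of this list overlapped, at 68725, 48573 and 64522 CPM against a lowest, median and highest of 35318, 69387 and 76488.5 CPM. These sums include apoa1b, given above, which was far higher in the other livers, so they do not show like levels of the listed genes. Over the 17 genes the median log2 ratio of the 2 sets' medians, each plus 0.1 CPM, was 6.76. Over all 16060 measured genes it was 0.44. The members among the 17 were chosen on this contrast. Of the distal list 0 of 11 are members and 4 were higher. SLC10A2, which takes up bile acids at the end of the intestine, was near 0 in all livers, at 0.114, 0.0415 and 0 CPM in the apoea-high ones. FABP6, the bile acid binding protein of the distal intestine, was at 8.86, 1.78 and 6.12 CPM against 0 to 0.889 CPM, and slc51a, part of the carrier that exports bile acids, was lower than elsewhere, at 127, 58.4 and 76.5 CPM against 223 to 784 CPM. Of the lysosome-rich enterocyte list 10 of 14 measured genes were higher, with both PLAC8 genes and the protease ctsl.1 as members. LGMN, a lysosomal protease, was at 233, 72.5 and 140.3 CPM against 11.5 to 44.0 CPM and CTSB, cathepsin B, at 183, 122 and 178 CPM against 45.9 to 127 CPM, where the lowest apoea-high liver overlaps the highest of the others. The whole list summed to 2356, 2327 and 1943 CPM against 110.0, 213 and 270.0 CPM. Most of the sum in the apoea-high livers came from both PLAC8 genes, which were chosen on this contrast. CUBN (cubilin) and amn (amnionless), a receptor pair for protein uptake that is in the list and is named here after its values were seen, were low, CUBN at 0.0758, 0.208 and 0.455 CPM against 0.0468 to 0.376 CPM and amn at 0.0758, 0.0415 and 0.0350 CPM against 0 to 0.0296 CPM.

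No gene of the list of intestinal transcription factors is a member. Of 29 measured, 6 were higher in each apoea-high liver, 3 lower and 20 overlapped. nr5a5, a nuclear receptor, was at 174, 76.5 and 131 CPM against 14.6 to 59.9 CPM and ELF3, a factor of epithelia, at 101, 46.7 and 50.9 CPM against 4.53 to 23.9 CPM. HNF4A, which liver and intestine share, was at 101, 77.2 and 112 CPM against 46.5 to 184 CPM and overlapped. TFCP2L1 was lower, at 190.2, 332 and 175 CPM against 349 to 1484 CPM. The list of bile acid handling holds no member either: NR1H4, the bile acid receptor, was at 48.0, 44.2 and 52.1 CPM against 19 to 145 CPM, and its target NR0B2 at 218, 13.7 and 2.099 CPM against 0.234 to 2.13 CPM.

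Among themselves the 3 apoea-high livers held most members at like levels. In 101 of 150 members the highest of the 3 values was within 2-fold of the lowest, the median ratio was 1.73, and 8 members passed 4-fold. The members were not more even than the genes at the floor in general. Of the 150, 132 were within 2-fold between tert+/+ replicate 5 and tert+/- replicate 3. That is a like share to the 88.0% of the 1411 genes at the 50 CPM floor. Between tert-/- replicate 1 and these 2 livers, in the same order, it was 124 and 119 of the 150. Both are smaller shares than the 93.5% and 90.0% of the floor genes, so the members were less even there. The most even were USH1C (1.05), actb1 (1.11), cldn15la (1.11), si:dkeyp-73b11.8 (1.12) and chs1 (1.13). The most uneven was clca1, whose highest value, in tert+/+ replicate 5, was 8.73 times its lowest. tcnba followed at 8.05 times and cuzd1.1, which in mammals is found in secretory granules of the pancreas, at 6.46 times, at 305, 233 and 1508 CPM. si:ch211-142d6.2 was at 291, 82.8 and 498 CPM and ace, angiotensin-converting enzyme, at 68.7, 91.9 and 336 CPM. All of these but clca1 were highest in tert-/- replicate 1, the liver in which the pancreas list reached 10694 CPM. Whether these members are linked to the pancreas transcripts was not tested. Over all members tert-/- replicate 1 was the highest of the 3 in 77, tert+/+ replicate 5 in 49 and tert+/- replicate 3 in 24. tert+/- replicate 3 was the lowest in 78. Across the 150 members the log2 levels of any 2 of the 3 livers had Pearson's r of 0.897 to 0.914, a description across genes, which are not independent and share the 50 CPM floor.

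**Figure D4:**
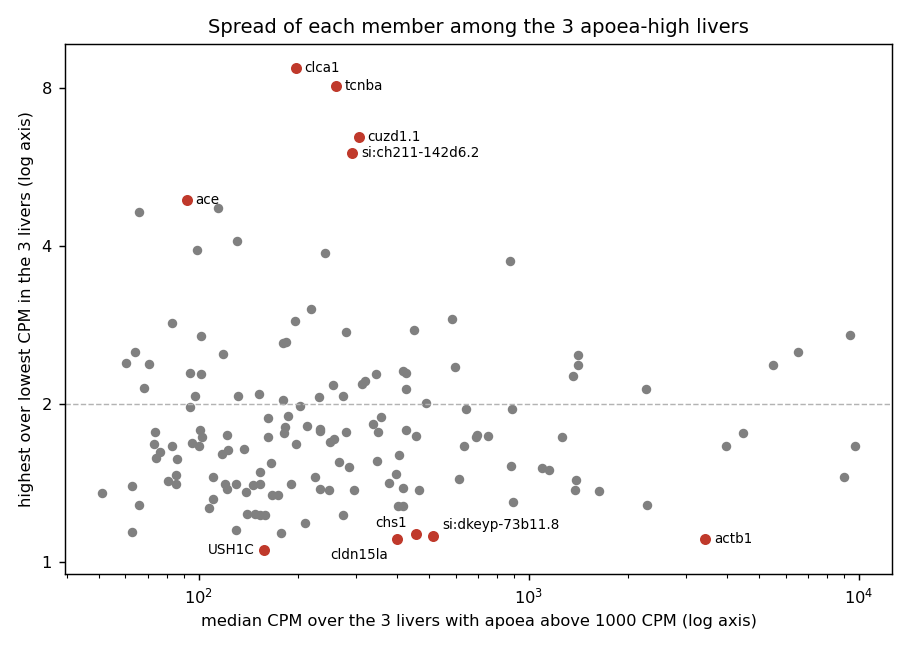
Ratio of the highest to the lowest CPM of each member in the 3 apoea-high livers (log axis) against its median CPM there (log axis), with 1 point per member, the 5 widest and 5 narrowest in red and a dashed line at 2-fold. Most members (101 of 150) lie within 2-fold, clca1 and tcnba pass 8-fold, and actb1 and USH1C lie near 1.

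In the other 10 livers the members were low but not silent. Of the 150, 57 stayed under 1 CPM in all 10 and 23 passed 10 CPM in at least 1. Of 51 members with 0 counts in some liver, 19 had 0 in 5 or more and none had 0 in all 10. The highest of the 10 values lay in tert+/- replicate 4 for 36 members and in tert+/+ replicate 1 for 32. Among the 20 members highest in rank it lay in tert+/- replicate 4 for 10, which is also the liver with the most apoea of the 10, at 2.15 CPM. chia.1 was at 3.42 CPM there, against at most 1.08 CPM in the next. The 2 livers with heart muscle transcripts, tert+/+ replicate 1 and tert+/- replicate 5, held the highest value for 50 members. How often each liver is the highest over all genes was not counted, so no trait of the members is read from these counts. A link to heart muscle was not tested. tert+/+ replicate 1 also has the lowest total, 17801374 counts, so that 1 count weighs most there (0.0562 CPM). ctsl.1 was at 3.17 CPM in tert-/- replicate 3 and at most 0.239 CPM in the others.

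In 4 members the 10 livers fell into a high and a low set, with a step of at least 5-fold (after adding 0.1 CPM) and at least 2 livers on each side. This feature was looked for after the values were seen. RETSAT was at 3.09 to 22.6 CPM in 7 livers and at 0.0858 to 0.159 CPM in tert+/+ replicate 2, tert+/- replicate 4 and tert-/- replicate 3. FOLR2 was at 2.87 to 9.24 CPM in 6 livers and at 0.0562 to 0.318 CPM in the other 4. atp1a1a.4, an alpha subunit of the sodium pump, was at 2.16 to 4.27 CPM in 7 livers and at 0 to 0.0470 CPM in tert+/- replicate 1, tert+/- replicate 2 and tert-/- replicate 2. ms4a17a.16 was at 2.36 to 4.09 CPM in 4 livers and at 0 to 0.0536 CPM in 6. The livers on the low side differ from gene to gene. All 3 apoea-high livers held these members at 358 to 574, 88.1 to 157, 170.3 to 466 and 80.5 to 185 CPM, in the order named.

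Genotype took no part in the choice of members, and the comparison of genotypes asks whether mutant fish differ in these genes. In the fit of all 13 livers (edgeR quasi-likelihood test, TMM scaling, Benjamini-Hochberg adjustment over 16376 genes) 0 of 150 members passed an adjusted p of 0.05 in each of the 3 comparisons, as did 0 of all genes (0%). At an unadjusted p under 0.05 there were also 0 members, beside 1.15% of all genes for tert-/- against tert+/+, 1.33% for tert+/- against tert+/+ and 1.12% for tert-/- against tert+/-. DESeq2 called 0 members as well, and 3, 0 and 2 of all genes in the same order. The median log2 fold change over the members was 0.73 for tert-/- against tert+/+ (133 positive, 17 negative), 0.36 for tert+/- against tert+/+ (111 and 39) and 0.28 for tert-/- against tert+/- (110 and 40), against medians of -0.01, -0.03 and 0.01 over all genes. The standard errors (SE) given with edgeR values were derived from its fit, as the absolute log2 fold change over the square root of F. Their medians over the members were 2.55, 2.26 and 2.59, against 0.56, 0.49 and 0.56 over all genes. The standard errors of DESeq2 had medians of 2.14, 1.86 and 2.14 over the members, against 0.59, 0.51 and 0.59. The standard errors include the spread between the apoea-high livers and the rest, on which the members were chosen. That spread lies within each genotype, so this fit could hardly detect a difference between genotypes in the members. Its 0 calls therefore do not show that the genotypes are alike in them. These comparisons share livers and are not independent of each other. Each genotype holds 1 apoea-high liver, in groups of 5 tert+/+, 5 tert+/- and 3 tert-/- livers. Group size alone therefore shifts the medians that involve tert-/-. The members rise together in the same livers, so their signs are not separate observations and no direction is read from them.

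The members with the smallest p were as follows. ace, the first for tert-/- against tert+/+, had a log2 fold change of 2.77 ± 2.48 (SE, 13 livers, edgeR adjusted p = 1.0). ifit14, the first for tert+/- against tert+/+, was at 2.2 ± 2.32 (SE, adjusted p = 1.0 by edgeR). tcnba, the first for tert-/- against tert+/-, was at 3.01 ± 3.24 (SE, adjusted p = 1.0 by edgeR). For ace the livers of tert-/- lay at 336, 0.45 and 0.0593 CPM and those of tert+/+ at 1.46, 0.114, 0.621, 0.0468 and 68.7 CPM, from replicate 1 on. The 2 groups overlap, and in each of them 1 liver holds nearly all of the counts. cyp3c3, a cytochrome P450, and SLC23A1 followed for tert-/- against tert+/+, slc5a8l and FLVCR1, a heme exporter, for tert+/- against tert+/+, and cuzd1.1 and SLC23A1 for tert-/- against tert+/-.

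These values change with each of several livers, and with the number of livers in a group. Where a liver other than the apoea-high one is left out, the apoea-high liver weighs more in the smaller group. Such a change is not read as a difference of the liver left out. Leaving out any 1 of tert+/- replicates 1, 2, 4 and 5 turned the median for tert-/- against tert+/- to between -0.028 and -0.046, with 68 or 69 members positive, and leaving out any 1 of tert+/+ replicates 1 to 4 brought that for tert+/- against tert+/+ to 0.043 to 0.049. With library totals as the only scaling the latter was -0.16. Leaving out an apoea-high liver moved them most. Without tert-/- replicate 1 the fitted value of all 150 members for tert-/- against tert+/+ was negative, their median on the log2 scale being -5.43, and the median against tert+/- was -6.28. Without tert+/- replicate 3 the medians were -4.56 for tert+/- against tert+/+ and 5.25 for tert-/- against tert+/-, over the 111 members that passed the filter on low counts. Without tert+/+ replicate 5 they were 5.39 for tert-/- and 5.11 for tert+/- against tert+/+. None of these fits called a member at the adjusted p. At an unadjusted p under 0.05 and without tert+/- replicate 3, 59 of 111 members were lower in tert+/- than in tert+/+, beside 2.59% of all 15921 genes changed either way, and 81 were higher in tert-/- than in tert+/-, beside 3.80%. Without tert+/+ replicate 5, 68 of 111 were higher in tert-/-, beside 3.69% of 15797 genes, and 68 in tert+/-, beside 2.71%, each against tert+/+. In these fits only 1 of the 2 genotypes compared still has its apoea-high liver, so the choice of members sets the direction and nothing is read from the counts. Without tert-/- replicate 1 there were 0 such members.

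With all 3 apoea-high livers left out, an alternative chosen after seeing the data, 101 of the 150 members passed the filter and 0 were called in each comparison, beside 0% of all 16219 genes. Those that passed are the members with more counts in the 10 livers and do not stand for all 150. Their median log2 fold changes were -0.06 for tert-/- against tert+/+, -0.11 for tert+/- against tert+/+ and -0.01 for tert-/- against tert+/-, with median standard errors of 0.68, 0.56 and 0.68. At an unadjusted p under 0.05 there were 2 of the 101 members beside 2.02% of all genes, 7 beside 2.36% and 1 beside 1.88%. The 7, for tert+/- against tert+/+, are a larger share than among all genes, with 3 higher and 4 lower in tert+/-. The members with such a p include si:dkey-238c7.13, at a log2 fold change of 1.52 ± 0.52 (SE, edgeR adjusted p = 1.0) for tert-/- and 1.06 ± 0.45 (SE, edgeR adjusted p = 1.0) for tert+/- against tert+/+. Its levels were 10.4, 11, 16.8 and 6.0 CPM in tert+/+ replicates 1 to 4, 27.1, 24.8, 31.9 and 23.3 CPM in tert+/- replicates 1, 2, 4 and 5, and 43.3 and 12.1 CPM in tert-/- replicates 2 and 3. The tert+/+ and tert+/- livers did not overlap in this gene, the tert-/- livers lay on both sides, and it was named here after its values were seen. How many of all genes lie apart in this way was not counted, so no difference between genotypes is read from it. tfpil was at 1.49 ± 0.67 and 1.73 ± 0.58 (SE, both edgeR adjusted p = 1.0) in the same 2 comparisons. Its levels were low, at 3.62 CPM in tert+/- replicate 1 and 0.281 to 1.19 CPM in the others of the 10 livers. MPP1, a scaffold of the membrane skeleton, was at -1.12 ± 0.39 (SE, edgeR adjusted p = 0.999) for tert-/- against tert+/-. Without the 2 livers with heart muscle transcripts as well, 100 members passed the filter and 0 were called, beside 0% of 15057 genes. At an unadjusted p under 0.05 there were 6, 15 and 3 of the 100 in the same order, beside 2.90%, 4.80% and 2.58% of all genes. The 15, for tert+/- against tert+/+, are a larger share than among all genes, with 9 higher and 6 lower in tert+/-. The 8 livers of this fit are part of the 10 above, so this is not a second observation. The members were not tested as a set.

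**Figure D5:**
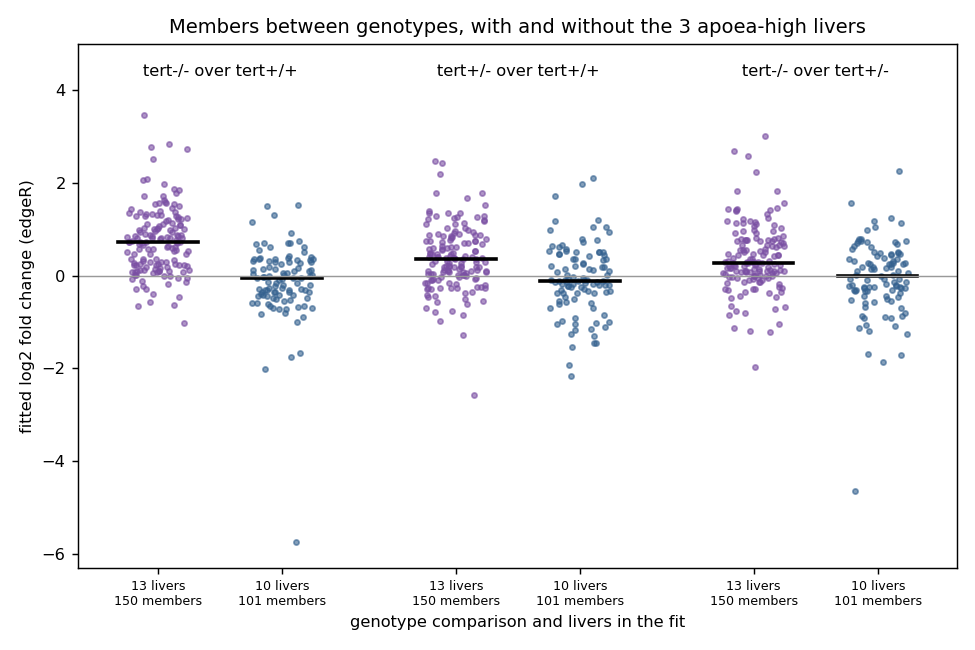
Fitted log2 fold change of each member (points) in the 3 genotype comparisons, from the fit of all 13 livers (150 members) and of the 10 livers without the apoea-high ones (101 members that passed the filter), with a bar at the median. The medians are 0.73, 0.36 and 0.28 with 13 livers and -0.06, -0.11 and -0.01 with 10.

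Of the 150 members 118 could be placed by symbol in the RefSeq gene order, on 25 chromosomes, and 5 pairs of them had at most 2 protein-coding genes between them. These are the chitinase pairs chia.1 with chia.2 and chia.2 with chia.3, apoa4b.3 with apoa4b.2 (1 gene between), ifit15 with ifit14 and krt4 with zgc:158846. Apart from krt4 and zgc:158846, whose kinship is not given by their names, the pairs are copies of a gene family, whose reads may be shared by the counting.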

How the data were processed

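RNA of 13 zebrafish livers of 3 genotypes was sequenced after a TruSeq preparation that keeps no strand. The authors deposited raw counts for each gene. For these the notes of the submitters list STAR 2.4.1d, featureCounts 1.4.6-p4 and the build GRCz10, whereas the methods of the paper name kallisto. They also deposited RPKM, in which the 13 totals appear to have been applied in turn down the genes instead of each to its own liver: the implied gene length had a median CV of 0.00188% that way and of 27.8% with own totals, over 2866 genes with at least 200 counts in every liver. RPKM with own totals were therefore recomputed for levels between genes, and the deposited RPKM served only an alternative test (limma 3.58.1 on log2(RPKM + 0.1) and log2(RPKM + 1), a scale that understates changes of low genes).

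Genotypes from the labels were compared by edgeR 4.0.16 in R 4.3.3 (quasi-likelihood test, TMM, filterByExpr, 13 livers, Benjamini-Hochberg, threshold 0.05), and the code was tested on simulated counts. CPM came from Python 3.11.15 with pandas 2.3.3. Alternatives were DESeq2 1.42.0, limma, other scalings, filters and settings of the rule, only the 2 genotypes compared, and each liver left out. Leaving out 3 or 5 livers was added after seeing the data.

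The members, gene lists and tests were chosen with earlier results of these data known. Genes named are the 20 highest ranks, up to 4 members of each list and of those in no list by lowest CPM in the apoea-high livers, the 5 widest and 5 narrowest there, the 5 highest medians elsewhere, the 3 smallest p in each comparison, 3 genes on either side of the edge, up to 4 genes by mean CPM of each of 6 further lists (transcription factors, hepatocytes, bile acids, lysosome-rich, goblet and enteroendocrine cells), apoea and tert. Any other gene was named after its values were seen. Symbols, often the human ones, were found for 146 of the 150 members and for 26269 of all identifiers. Sequences and coordinates are not used here. Reads of paralogs or of genes that overlap on either strand cannot be separated with certainty. No 2 libraries were copies, the most alike of 78 pairs having a chi-square of 90.4 per degree of freedom. Dissection is not described in the sources used here, and the labels name no batch.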

Additional observations from a re-analysis of the deposited data

Results flagged for a closer look

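The summed CPM of the members and of each class with more than 1 member were looked at within the 5 tert+/+ and the 5 tert+/- livers, 22 groups of values in all, and in all 22 the apoea-high liver of the genotype lay further from the next liver than Dixon's 95% critical value for 5 samples allows relative to the range. By chance about 1 in 20 groups is singled out, but here the members were chosen for exactly these livers, so this adds nothing to the choice. The sum over the 150 members was 117118 CPM in tert+/+ replicate 5 and 89572 CPM in tert+/- replicate 3. In the same order the class sums were 26409.5 and 14083 CPM for chitin turnover, 14614 and 11743 CPM for clone-named or unnamed genes, 6878 and 5326 CPM for epithelial adhesion and keratins, 33676 and 25817 CPM for lipid uptake and lipoproteins, 3659 and 3358 CPM for microvillus structure. They were 649 and 988 CPM for defence genes, 22022 and 20430.3 CPM for members named for other functions, 4185 and 3543 CPM for solute transporters, 3908 and 3238 CPM for surface digestive enzymes and 823 and 877 CPM for vitamin binding and retinoid enzymes. The 3 tert-/- livers are too few for this rule.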

How the results depend on the processing

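No member was called in any genotype comparison under any alternative run, by edgeR, DESeq2 or limma. In runs with all 3 apoea-high livers the spread within genotypes leaves little room for a call. With library totals as the only scaling, the median log2 fold change of the members for tert+/- against tert+/+ was -0.16 (57 positive, 93 negative) in place of 0.36. Leaving out 1 liver at a time moved the log2 fold changes of the members with the smallest p from -5.04 to 7.1 for ace, -3.74 to 6.52 for cyp3c3 and -2.02 to 3.76 for SLC23A1 in tert-/- against tert+/+, from -3.21 to 7.40 for ifit14, -2.47 to 4.69 for slc5a8l and -2.93 to 5.69 for FLVCR1 in tert+/- against tert+/+, and from -8.81 to 3.63 for tcnba, -7.66 to 10.09 for cuzd1.1 and -2.39 to 4.43 for SLC23A1 in tert-/- against tert+/-. The lowest of these values left out the apoea-high liver of the first genotype named. Without all 3 apoea-high livers the sign turned for ace, at -0.71, and SLC23A1, at -0.058, against tert+/+, and for cuzd1.1, at -0.27, against tert+/-. Without the 2 livers with heart muscle transcripts too, SLC23A1 was at -0.094 against tert+/+. The sign held without the 3 livers for cyp3c3, at 0.25 against tert+/+, and for SLC23A1, at 0.63 against tert+/-. It also held for ifit14, slc5a8l and FLVCR1 in tert+/- against tert+/+, while tcnba did not pass the filter. Of the 150 members, 90 were drawn again with a minimum of 10 CPM, 94 on RPKM with own totals, 105 with a minimum of 100 CPM, 133 with TMM scaling, 141 when ranked by medians, 149 and 150 with other added constants, and 127 to 150 with 1 liver left out. The median ratio was 238 against the median of the other livers, 70.5 with TMM and 90.9 to 103 with 1 liver left out. No paired analysis was possible because the labels give no replicate numbers and pair no fish between genotypes. Depth limits members near 1 count, such as pvalb9, and the apoea-high set holds 1 liver a genotype, so genotype and single liver cannot be told apart within it.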
